A study of Arabidopsis thaliana with 32 samples.

Results

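Seedlings of Arabidopsis thaliana, accession Col-0, that kept their nights were compared with seedlings moved to unbroken light, at hours when both were lit. The long-day group was 6 libraries from seedlings held in 16 h light and 8 h dark, taken 8, 11, 14, 32, 35 and 38 h after the first sampled dawn. The continuous-light group was 6 libraries taken at the same hours, counted from subjective dawn, from seedlings that had grown in the same long days before the lamps were left on. Both groups were wild type, came from plates of Murashige and Skoog medium at 24 °C and carry an age of 8 days in the labels. These 12 libraries were chosen by sampling hour alone out of 32 in the series. The protocol has seedlings stay 2 more days in either regime while the design text speaks of a single day, and the time from transfer to the first sample is not stated. There was 1 library per time point, nothing says that libraries came from separate plates or batches of seedlings, and all p-values therefore measure the spread between these libraries. Whole seedlings were used, so that fewer cells of a type and less RNA per cell cannot be told apart.

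In long days the afternoon is a stretch of light that follows a night. Starch laid down in the light is broken down in darkness, the morning clock factors CCA1 and LHY fall away during the day, and the PRR, GI and evening complex genes take over towards dusk. In continuous light the clock runs on from its last setting, while leaves are never without photosynthesis. Genes for light capture, starch and sugar responses are known to read both the clock and the supply of carbon.

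A gene's level was the sum of FPKM (fragments per kilobase of transcript, scaled to library size) over its annotated transcripts. Differences are long day minus continuous light on log2(FPKM + 1), after each library was centred on its median, from a limma fit with hour of day as a covariate, and a locus was called at a Benjamini-Hochberg adjusted p under 0.05 over all 25708 loci tested. The fit called 4985 loci, or 19.4%: 2431 were higher in long days (9.46%) and 2554 were lower (9.93%). Without centring the split was 3573 higher and 2002 lower. In 2782 loci (10.8%) all 6 libraries of one regime lay above all 6 of the other.

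The 2 tables differ across whole libraries in ways that cannot be told apart from the light regime. Transcripts encoded in the plastid summed to 9990 to 12800 FPKM in the 6 long-day libraries (median 11800), against 90 to 419 FPKM in the 6 continuous-light libraries (median 239). The means differ 46.3-fold and the exact permutation p of 0.00216 (two-sided) is the smallest that 6 against 6 can give. The gap was not bound to the afternoon, since all 16 long-day libraries lay at 9990 to 13500 FPKM and all 16 continuous-light libraries at 77.3 to 548 FPKM. Mitochondrial transcripts summed to 147 to 189 FPKM in long days, against 50.3 to 104 FPKM in continuous light. Whether RNA was selected by poly(A) tail, depleted of ribosomal RNA or kept by strand is stated in none of the sources used, and the part of any such step in this difference was not tested. Plastid loci held 1.75 to 2.22% of FPKM in long days and 0.0146 to 0.0724% in continuous light. Transcripts assembled from the reads held 11.3 to 12.3% of FPKM in cycle 1 and 14.4 to 14.7% in cycle 2 of long days, against 10 to 11.7% in continuous light. Each table has its own set of assembled transcripts, so that a gene's FPKM can sit on annotated transcripts in one table and on assembled ones in the other. Where adding the assembled transcripts moved a gene's difference by over 1.5 times, that value is given too. Assembled transcripts of a gene that spans several annotated loci were assigned to no locus and were not added. Read numbers per library are unknown.

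**Figure D1:**
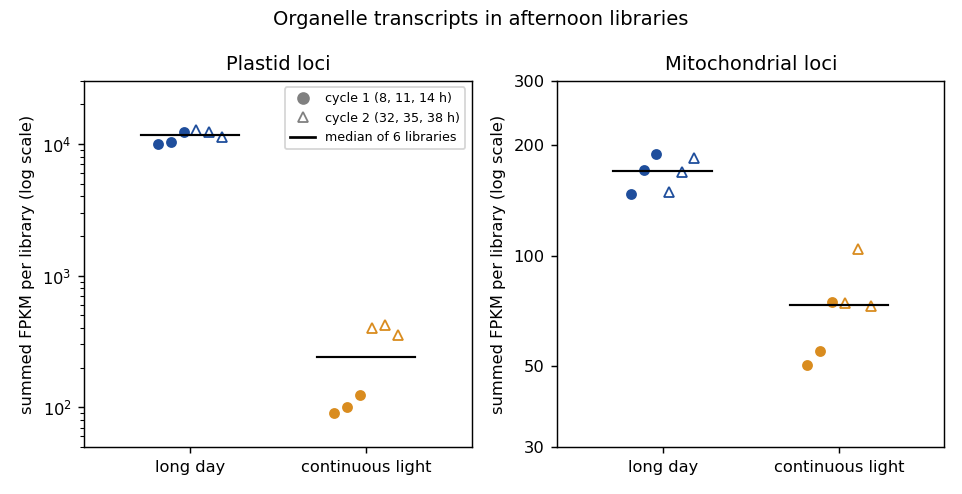
Summed FPKM of plastid loci (left) and mitochondrial loci (right) in each afternoon library, long day left of continuous light, on log axes. Filled circles are cycle 1, open triangles cycle 2, and bars are medians of 6 libraries. Plastid sums lie at 9990 to 12800 in long days and at 90 to 419 in continuous light, where cycle 2 (353 to 419) lies above cycle 1 (90 to 125).

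Of the 65 plastid loci tested, 46 were higher in long days and 0 were lower. Of 90 mitochondrial loci 35 were higher and 0 lower, beside 9.46% and 9.93% of all loci. The 12 largest rises among well-measured loci were all plastid genes. ATCG00430, which the files name NDHK, a subunit of the plastid NADH dehydrogenase-like complex, had 271 to 313 FPKM in long days (median 296), against 0.983 to 5.27 FPKM in continuous light (median 2.56). Its log2 difference was 6.38 ± 0.28 (SE), and in continuous light the cycle 2 libraries were the higher ones. ATCG00740, named RPOA, a subunit of the plastid RNA polymerase, differed by 5.51 ± 0.38, with 149 to 322 FPKM in long days and 1.39 to 8.14 FPKM in continuous light. Among the 12 were genes for ribosomal proteins (RPS19, RPL14, RPL36, RPS15), NDH subunits (NDHK, NDHC, NDHJ), RPOA, the photosystem II gene PSBZ and a histidine tRNA.

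Nuclear genes for the light reactions went the opposite way. Of 23 nuclear photosystem subunit genes tested, 19 were lower in long days and 0 were higher, and all 23 differences were below 0, with a median of -0.80 beside -0.03 over all loci. Of 21 antenna genes, which encode the chlorophyll-binding proteins around the reaction centres, 12 were lower and 0 higher (median -0.63; 1 was higher without long day at 35 h). Of 18 Calvin cycle genes, 10 were lower and 0 higher (median -0.66). The shares over all loci were 9.93% lower and 9.46% higher. Assembled genes that span several annotated loci held 10 antenna, 9 Calvin cycle and 4 photosystem genes in at least 1 table. Few members overlap no other annotated or assembled gene. Of these, 4 of 5 photosystem, 2 of 3 antenna and 2 of 3 Calvin cycle genes were lower, and 0 higher. Antenna differences ran from -3.49 to 3.56 and Calvin cycle differences from -2.96 to 1.97. The summed level of the photosystem list was 13100 to 25500 FPKM in long days (median 17800), against 27100 to 41200 FPKM in continuous light (median 29700), and the groups did not overlap. Quantile normalization, which makes the distribution of values the same in every library, left 10 photosystem and 7 antenna genes lower and none higher. In fits of 3 against 3 libraries, cycle 1 alone gave 15 photosystem and 7 antenna genes lower and cycle 2 alone gave 1 of each. Over all loci these fits called 900 lower in cycle 1 and 525 lower in cycle 2. In the fit of all 12 libraries the photosystem median was -1.04 in cycle 1 and -0.59 in cycle 2. The antenna medians were -0.90 and -0.45. For a change between cycles, 1 photosystem and 0 antenna genes were called.

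PSAE1, a stromal subunit of photosystem I, had 726 to 1350 FPKM in long days (median 961), against 1610 to 2380 FPKM in continuous light (median 1740). Every long-day library was below every continuous-light library, and the difference was -1.04 ± 0.13 (limma adjusted p = 0.00059). PSBR, a small lumenal-side protein of photosystem II, had 1270 to 3290 FPKM in long days (median 1600), against 3960 to 6670 FPKM (median 4830), a difference of -1.58 ± 0.23. Again the groups did not meet, although the long-day library at 32 h stood at 3290 FPKM and the other 5 at 1270 to 1810 FPKM. PSAH1 and PSAH2, 2 genes for the subunit at which mobile antenna docks on photosystem I, differed by -0.93 ± 0.14 and -0.95 ± 0.14. PSBQ1, part of the oxygen-evolving complex, had 311 to 703 FPKM in long days, against 665 to 1330 FPKM in continuous light, with ranges that overlapped at their ends. LHCB5, the minor photosystem II antenna CP26, had 1040 to 2330 FPKM in long days (median 1780), against 2240 to 4530 FPKM (median 3080), which overlapped likewise. Its difference was -1.07 ± 0.16 (limma adjusted p = 0.00147).

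LHCA5 and LHCA6, antenna proteins that tie photosystem I to the NDH complex, differed by -0.79 ± 0.11 and -0.99 ± 0.16. LHCB4.2, an isoform of the minor antenna CP29, had 431 to 1390 FPKM in long days and 953 to 2090 FPKM in continuous light, and lost its call without the hour term (adjusted p = 0.0764). In the Calvin cycle, SBPASE, which helps to regenerate the carbon dioxide acceptor, had 66.7 to 152 FPKM in long days (median 91.9), against 147 to 195 FPKM (median 172), and differed by -0.92 ± 0.16. RPI3, a ribose phosphate isomerase, had 75.0 to 101 FPKM in long days, against 126 to 147 FPKM, with no overlap. FBA2, a plastid aldolase, differed by -0.68 ± 0.11 and PRK, phosphoribulokinase, by -0.62 ± 0.14 (adjusted p = 0.0603 without the hour term). CP12-1, the small protein that binds phosphoribulokinase in the dark, had 492 to 612 FPKM in long days and 706 to 774 FPKM in continuous light, a difference of -0.50 ± 0.09 that lost its call under quantile normalization (-0.26, adjusted p = 0.108). Of the genes named here PSBQ1, LHCB5 and LHCA6 overlap no other annotated or assembled gene, while PSAE1, PSAH1, PSAH2, PSBR, LHCA5, LHCB4.2, PRK and RPI3 overlap another annotated locus, whose reads cannot be told apart without strand.

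Of 24 genes for chlorophyll and carotenoid synthesis, 8 were lower in long days and 1 was higher (median -0.39), beside 9.93% and 9.46% of all loci. Without single libraries 4 to 11 were lower, with 4 or 5 when long day at 11, 14 or 38 h or continuous light at 14 or 38 h was left out. PORC, a light-dependent protochlorophyllide reductase, had 35.6 to 67.9 FPKM in long days (median 48.0), against 66.1 to 98 FPKM in continuous light (median 89.9). ZDS, a carotenoid desaturase, had 34.4 to 43.0 FPKM, against 48.6 to 53.3 FPKM, with the groups apart. Of the list's single rise, LUT5, nearly all FPKM in continuous light sat on assembled transcripts, so that its value is not read as a difference of the gene. Leaf mesophyll markers, which overlap these lists, summed to 6370 to 13200 FPKM in long days and 8860 to 15600 FPKM in continuous light, with 4 of 9 lower, 0 higher and none at 0, and their part in the result was not tested. The lower levels were not particular to the afternoon. At 2, 5, 26 and 29 h the photosystem median was -1.11, with 20 of 23 lower beside 8.34% of all loci in that fit, and no member was called for a difference between afternoon and morning.

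**Figure D2:**
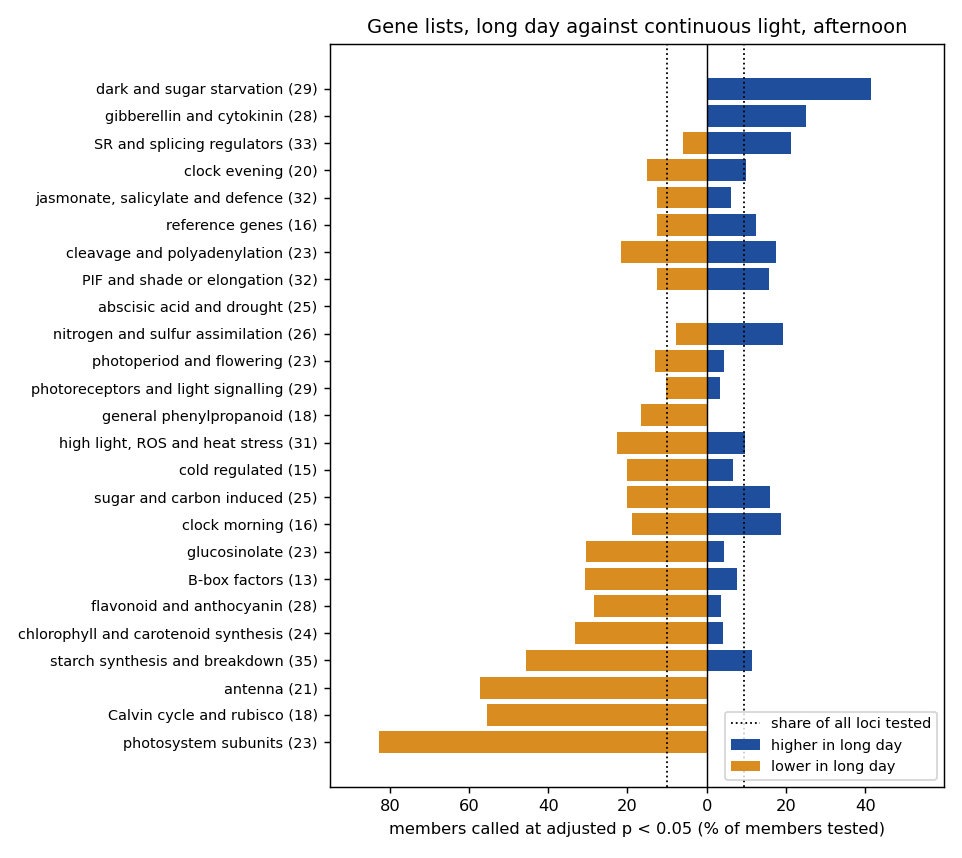
Share of each gene list called higher (right, blue) or lower (left, orange) in long-day than in continuous-light afternoons, in % of the members tested (numbers in brackets), in order of the list's median difference. Dotted lines mark the shares over all loci, 9.46% higher and 9.93% lower. Photosystem subunits stand at 19 of 23 lower and dark and sugar starvation genes at 12 of 29 higher.

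Upstream windows of 250 bases were searched on both strands for CACGTG, the G-box bound by bZIP and bHLH factors, for GATAAG, known from light-regulated and sugar-repressed promoters, and for AAAATATCT and AAAAATCT, the evening element and the CCA1 binding site. All 4 are short words that occur by their letters alone. CACGTG was in 6.74% of the 25552 nuclear windows and GATAAG in 12.4%. Of the 31 photosystem and antenna genes lower in long days, 7 held CACGTG (22.6%) and 8 held GATAAG (25.8%). The whole lists, called or not, had similar shares. CACGTG was in 5 of 23 photosystem windows (21.7%) and 5 of 21 antenna windows (23.8%), and GATAAG in 21.7% and 19.0%. The windows of PSBQ1 and PSAH2 are shown because each holds CACGTG at 2 places, here in capitals together with any GATAAG, read 5′ to 3′ towards the start site, from RefSeq TAIR10.1.
PSBQ1 (chr4:11334102-11334351, plus strand): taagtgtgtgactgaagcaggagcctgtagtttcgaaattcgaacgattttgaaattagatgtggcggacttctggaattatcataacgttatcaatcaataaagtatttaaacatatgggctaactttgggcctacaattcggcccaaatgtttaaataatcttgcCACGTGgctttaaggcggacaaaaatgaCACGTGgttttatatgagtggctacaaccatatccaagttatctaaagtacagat
PSAH2 (chr1:19454548-19454797, plus strand): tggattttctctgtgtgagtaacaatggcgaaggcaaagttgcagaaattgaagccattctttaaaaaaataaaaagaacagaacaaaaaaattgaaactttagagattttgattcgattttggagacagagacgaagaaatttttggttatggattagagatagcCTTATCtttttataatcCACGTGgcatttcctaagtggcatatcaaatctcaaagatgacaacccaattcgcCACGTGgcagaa

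Starch genes were the other large group on the lower side. Of 35 tested, 16 were lower in long days and 4 higher (median -0.41), beside 9.93% and 9.46% of all loci. These counts rest on annotated transcripts alone, with differences from -4.84 to 2.29. Among the 13 members that overlap no other annotated or assembled gene, 7 were lower and 1 higher. The small subunit of ADP-glucose pyrophosphorylase (AT5G48300), the committed enzyme of starch synthesis, had 59.0 to 84.6 FPKM in long days (median 75.1), against 111 to 137 FPKM in continuous light (median 121). All 6 long-day libraries were below, and the difference was -0.80 ± 0.09 (limma adjusted p = 0.000217). Plastid phosphoglucomutase (AT5G51820) differed by -0.62 ± 0.10 and ISA2, a debranching isoamylase subunit of synthesis, by -0.67 ± 0.11. Among genes of breakdown, DPE2, the cytosolic enzyme that takes up maltose from starch, had 45.1 to 63.4 FPKM in long days, against 70.1 to 89.8 FPKM, without overlap. LSF2, a glucan phosphatase, had 14.5 to 20.4 FPKM, against 32.8 to 48.1 FPKM. The plastid phosphorylase PHS1 (AT3G29320) and the amylase BAM2 (AT4G00490) differed by -0.60 ± 0.14 and -0.62 ± 0.07, PHS1 with an adjusted p of 0.0567 under quantile normalization.

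The plastid amylase BAM3 (AT4G17090), the main maltose-forming enzyme of leaf starch, was the one member of the list among the 12 largest falls by the naming rule, in a locus that overlaps another annotated one. It had 7.94 to 31.9 FPKM in long days (median 13.8), against 41.5 to 87.9 FPKM in continuous light (median 71.4), a difference of -2.11 ± 0.22 (adjusted p = 0.000173). In the morning the difference was 0.08, and the afternoon minus the morning difference was -2.19 ± 0.43, with an adjusted p of 0.122. BAM4, an amylase-like protein without catalytic activity, was higher in long days, at 17.9 to 23.9 FPKM, against 12.2 to 15.6 FPKM. The other 3 rises of the list, SEX1, SS3 (AT1G11720) and BAM7, had 99.8%, 77.8% and 82.7% of their FPKM in continuous light on assembled transcripts, and their differences of 2.29, 1.82 and 1.8 became -0.54, -0.20 and 0.15 when these were added. SEX4, a glucan phosphatase, shows the size of that problem, since its difference of -1.85 ± 0.14 became -0.61 once assembled transcripts at the locus were added.

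Among genes that darkness and sugar shortage switch on, those called went in one direction in the middle of the light, while most were not called. Of 29 dark and sugar starvation genes, 12 were higher in long days and 0 lower, beside 9.46% and 9.93% of all loci. The median was 0.30, and 1 was lower without long day at 14, 32 or 38 h. Another 17 were not called, 6 of the 29 differences were below 0, and the differences ran from -2.22 to 1.19. The list's median level per library was 2.97 to 3.27 in long days and 2.15 to 2.60 in continuous light, in centred log2(FPKM + 1), and the groups did not overlap. Fits of 3 against 3 called 2 higher and 1 lower in cycle 1 and 3 higher in cycle 2. Over all loci they called 555 higher and 900 lower in cycle 1, and 328 higher and 525 lower in cycle 2. ASN1, asparagine synthetase and the classic dark-induced gene, had 105 to 178 FPKM in long days (median 140), against 55.3 to 77.6 FPKM in continuous light (median 70.0), a difference of 0.93 ± 0.12 (limma adjusted p = 0.00082). BZIP1, a transcription factor of the starvation response, had 21.8 to 42.6 FPKM, against 12.5 to 17.2 FPKM. BCAT2, which starts the breakdown of branched-chain amino acids, differed by 1.19 ± 0.17. KING1, a regulatory subunit of the SnRK1 energy-sensing kinase, differed by 0.33 ± 0.07, with ranges of 89.9 to 118 FPKM in long days and 63.9 to 89.2 FPKM in continuous light that did not meet.

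The starvation list holds 4 class II trehalose phosphate synthase genes, whose products are thought to regulate rather than to make trehalose phosphate, and all 4 were called higher. TPS8 had 43.1 to 54.5 FPKM in long days (median 46.9), against 18.6 to 32.1 FPKM (median 26.6), and TPS11 had 42.9 to 88.9 FPKM (median 53.5), against 19.6 to 32.4 FPKM (median 24.2). TPS9 had 29.6 to 44.9 FPKM, against 20.2 to 25.9 FPKM. In TPS8, TPS11 and TPS9 every long-day library was above every continuous-light library, and the differences were 0.80 ± 0.11, 1.12 ± 0.14 and 0.54 ± 0.08. TPS10 had 47.9 to 75.4 FPKM in long days, against 10.9 to 50.2 FPKM, a difference of 1.0 ± 0.29 (adjusted p = 0.0368) that became 0.50 with assembled transcripts. Its call was lost without any one of 7 libraries (adjusted p up to 0.0778) and with the sampling hours as a replicate block (0.0741). TPS5, of the same class but listed among sugar induced genes, had 12.8 to 15.2 FPKM, against 13.1 to 16.7 FPKM, and was not called (-0.23 ± 0.08, adjusted p = 0.0621). The beta-glucosidase DIN2 differed by 0.82 ± 0.17 with overlapping ranges. In the morning the list's median was 0.36, with 8 higher and 1 lower, beside 8.72% and 8.34% of all loci.

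**Figure D3:**
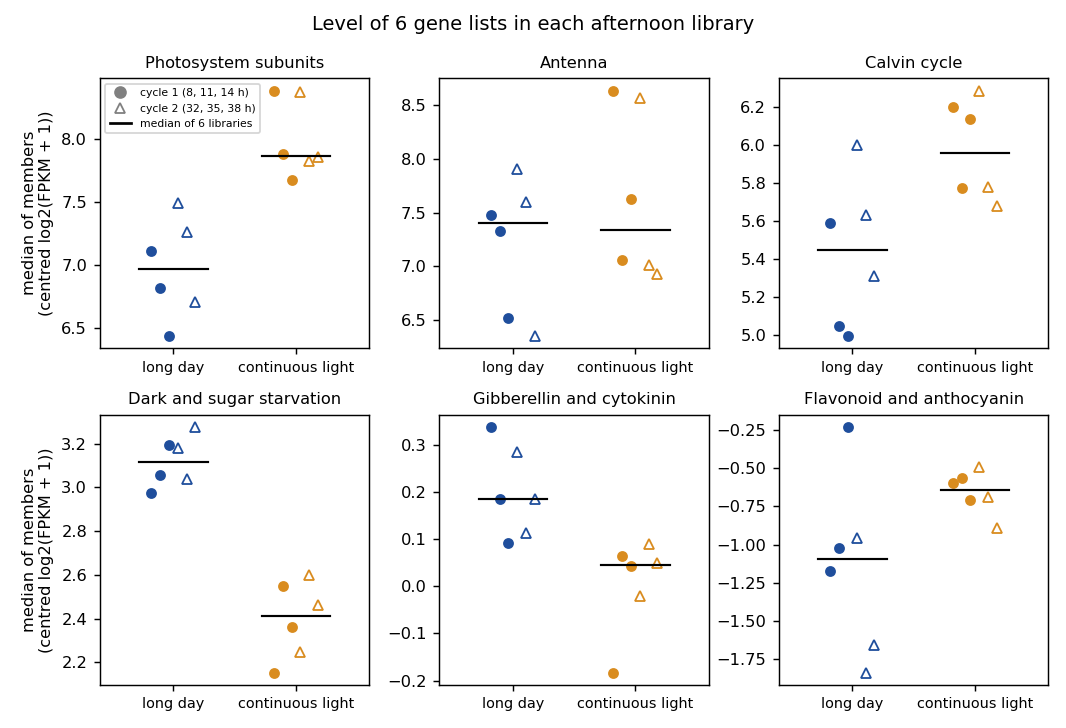
Median level of 6 gene lists in each afternoon library, in centred log2(FPKM + 1), long day left of continuous light. Filled circles are cycle 1, open triangles cycle 2, and bars are medians of 6 libraries. The photosystem list (6.44 to 7.49 against 7.68 to 8.38) and the starvation list (2.97 to 3.27 against 2.15 to 2.60) do not overlap between regimes, while the antenna list does.

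GATAAG was in 11 of the 29 starvation windows (37.9%) and in 6 of the 12 of genes higher in long days (50%), beside 12.4% of all nuclear windows. ASN1 and TPS8 are shown because each holds GATAAG at 2 places, in capitals, and ASN1 holds a CACGTG as well. A match is a run of letters and no measure of binding.
ASN1 (chr3:17441432-17441681, minus strand): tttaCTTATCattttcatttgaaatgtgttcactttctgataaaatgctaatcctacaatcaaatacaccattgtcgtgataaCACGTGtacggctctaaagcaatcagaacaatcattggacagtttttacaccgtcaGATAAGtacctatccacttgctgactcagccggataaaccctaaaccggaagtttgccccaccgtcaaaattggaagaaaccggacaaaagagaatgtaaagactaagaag
TPS8 (chr1:26474834-26475083, minus strand): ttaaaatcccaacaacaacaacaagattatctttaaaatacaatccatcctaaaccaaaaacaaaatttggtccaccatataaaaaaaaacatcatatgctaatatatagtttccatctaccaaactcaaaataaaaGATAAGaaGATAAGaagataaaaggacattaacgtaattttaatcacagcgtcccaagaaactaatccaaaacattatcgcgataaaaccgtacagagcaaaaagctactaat

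Sugar and carbon induced genes were mixed, with 4 of 25 higher and 5 lower (median -0.25), beside 9.46% and 9.93% of all loci. Without continuous light at 8 h 2 were higher, and without long day at 11 or 38 h or continuous light at 11 or 14 h 2 or 3 were lower. NR1 (AT1G77760), a nitrate reductase that sugar and light are known to raise, had 282 to 329 FPKM in long days (median 288), against 143 to 227 FPKM in continuous light (median 183), a difference of 0.66 ± 0.09. STP1, a monosaccharide importer of the plasma membrane known to be repressed by glucose, had 38.8 to 74.1 FPKM, against 24.0 to 45.4 FPKM, a difference of 0.86 ± 0.20. With assembled transcripts added its difference went to 0.58 with an adjusted p of 0.066. Of 26 nitrogen and sulfur assimilation genes, 5 were higher and 2 lower, with 3 higher when long day at 8, 11 or 38 h or continuous light at 11 or 14 h was left out. SULTR1;2, the root sulfate importer, had 40.9 to 55.1 FPKM in long days, against 26 to 41.2 FPKM, and differed by 0.50 ± 0.11. APR2, the reductase that dominates sulfate reduction, had 45.9 to 60.5 FPKM, against 80.5 to 95.2 FPKM, and GLN2, plastid glutamine synthetase, had 339 to 609 FPKM, against 573 to 729 FPKM. Both enzymes were lower, by -0.69 ± 0.08 and -0.65 ± 0.14.

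In the clock, most genes were not told apart. Of 16 morning genes, 3 were higher and 3 lower in long days (median -0.26), and of 20 evening genes 2 were higher and 3 lower (median 0.08), beside 9.46% and 9.93% of all loci. Leaving out single libraries gave 0 to 2 higher and 1 to 4 lower among the morning genes. The 3 rises were PRR7, RVE5 and RVE2, and the RVE5 and RVE2 calls were lost without any one of 8 and 9 libraries (adjusted p up to 0.0855 and 0.0868). Assembled transcripts held 87.5% of the FPKM of RVE2 in long days and 98.8% in continuous light, and its difference of 1.36 became -0.68 with these added (adjusted p = 0.0645). The 3 falls were LHY, RVE1 and RVE3, and the RVE1 call was lost without any one of 8 libraries (adjusted p up to 0.0737). RVE3, a MYB factor of the LHY family in a merged locus, had 0.357 to 1.51 FPKM in long days, against 3.84 to 7.02 FPKM in continuous light, and held its call without each library in turn (-1.72 to -1.52).

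PRR5, a pseudo-response regulator that represses CCA1 and LHY in the later day, gave the plainest difference. It had 21.6 to 33.2 FPKM in long days (median 24.6), against 14.6 to 19.8 FPKM in continuous light (median 15.9), with every long-day library above every continuous-light library and a difference of 0.55 ± 0.08 (limma adjusted p = 0.00168). In the morning PRR5 was lower in long days, by -0.55, at 1.67 to 6.59 FPKM against 2.79 to 6.87 FPKM, and the difference between afternoon and morning was 1.09 ± 0.20 (adjusted p = 0.119). ELF3, the scaffold of the evening complex, differed by 0.41 ± 0.08 and was lost without the hour term (adjusted p = 0.061), and its difference was 0.22 with assembled transcripts added (adjusted p = 0.0347).

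PRR7, which acts between PRR9 and PRR5, had 3.64 to 11.3 FPKM in long days, against 1.33 to 5.76 FPKM in continuous light, a difference of 0.84 ± 0.26 (adjusted p = 0.0488). Assembled transcripts held 81.8% and 88.6% of its FPKM, and with these added the difference was 0.28 (adjusted p = 0.016). LHY, a morning MYB repressor, had 1 to 16.5 FPKM in long days (median 2.88), against 4.18 to 13.9 FPKM (median 7.28), a difference of -1.05 ± 0.31 (adjusted p = 0.0402), and in the long-day table lies in a merged gene, an assembled gene that spans several annotated loci. Its partner CCA1 had 1.98 to 36.5 FPKM, against 12.1 to 26.6 FPKM, a difference of -1.01 ± 0.43 that missed the threshold (adjusted p = 0.119). With assembled transcripts added, LHY differed by -1.90 (limma adjusted p = 0.00202) and CCA1 by -0.41 (adjusted p = 0.382). For LHY none could be added in long days, where its gene is merged, so that its value compares unlike sums. In long days CCA1 was at 36.5 FPKM at 8 h and 1.98 FPKM at 38 h, and without the 8 h library the difference was -1.36 (adjusted p = 0.023). The PRR7 call was lost without any one of 10 libraries (adjusted p up to 0.0995, without continuous light at 38 h) and the LHY call without any one of 9 (up to 0.0889, without continuous light at 14 h). With the sampling hours as a replicate block both were lost (adjusted p = 0.0917 for PRR7 and 0.0651 for LHY), as they were without the hour term (0.079 and 0.153). PRR7 was also lost under quantile normalization (0.0543) and a pseudocount of 0.1 (0.0537), and LHY without centring (0.0573) and with a pseudocount of 5 (0.0523).

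TOC1, the evening repressor, scattered most. It had 1.38 to 46.3 FPKM in long days, against 18 to 37.5 FPKM in continuous light, and its difference of -1.82 ± 0.72 was not called (adjusted p = 0.104) unless the long-day library at 38 h was left out (-2.35, adjusted p = 0.0317). TOC1 lies in a merged gene in the long-day table. GI, a clock and flowering protein of the late day, had 18.3 to 44.5 FPKM, against 21.8 to 28.9 FPKM, with a difference of 0.13 ± 0.15. GRP8, an RNA-binding protein of the evening loop, had 103 to 180 FPKM, against 176 to 311 FPKM, in a locus that is merged in long days, a difference of -0.80 ± 0.14, or -1.32 with assembled transcripts. Because of the merging none were added for GRP8 in long days, so that the latter value compares unlike sums. JMJD5, a demethylase-like evening gene, differed by -1.66 ± 0.28 on its annotated rows and by -0.11 (adjusted p = 0.727) with assembled transcripts added.

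ELF4, a subunit of the evening complex, was the one locus of 25708 (0.00389%) whose regime difference was called to differ between afternoon and morning. In the afternoon it had 23.1 to 151 FPKM in long days (median 130), against 40.7 to 132 FPKM in continuous light (median 81.8), with a difference of -0.02 ± 0.20 whose sign changed with the scaling. In the morning it had 3.27 to 6.86 FPKM in the 4 long-day libraries, against 33.6 to 48.6 FPKM in the 4 continuous-light libraries, a difference of -2.90. The afternoon minus the morning difference was 2.88 (adjusted p = 0.000463). Between 1 and 7 loci were called under the scalings, filters, pseudocounts and locus sums tried, and ELF4 was among them in each fit that included its locus, also without any single library.

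**Figure D4:**
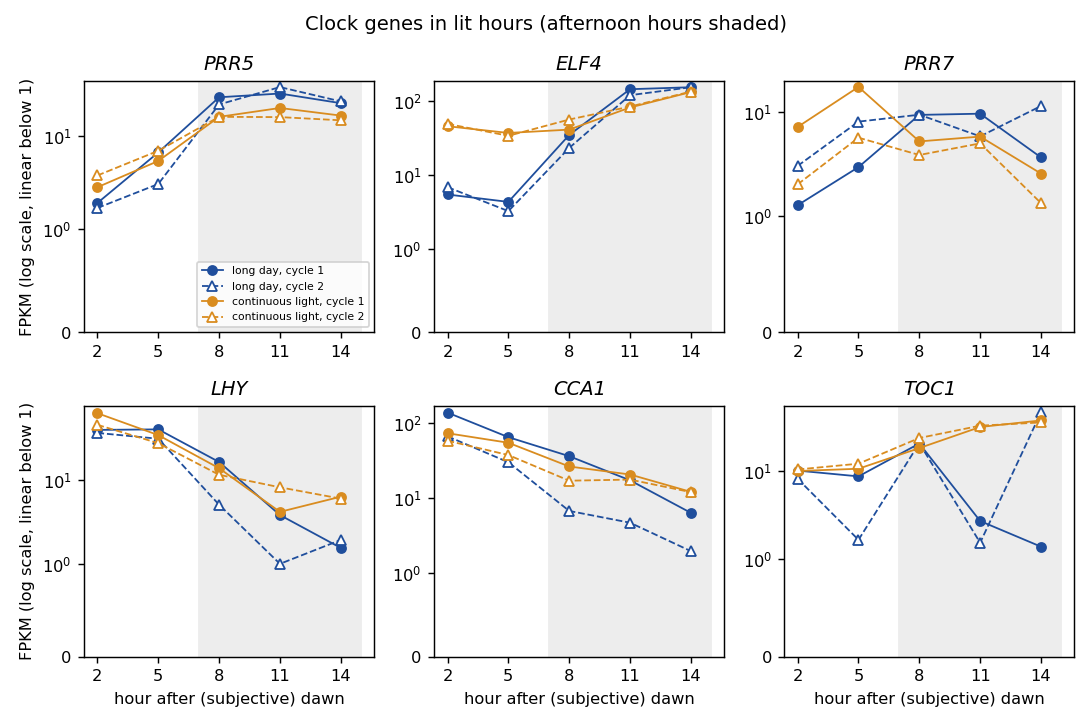
FPKM of 6 clock genes at the lit hours 2 to 14 (log axis, linear below 1), with afternoon hours shaded, long day in blue and continuous light in orange, cycle 1 with filled circles and cycle 2 with open triangles. PRR5 in long days lies above continuous light from 8 h on, and ELF4 in long days starts at 3.27 to 6.86 FPKM in the morning and is at 118 to 151 FPKM at 11 and 14 h.

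CACGTG was in 9 of 16 windows of morning clock genes (56.2%), and AAAATATCT was in 8 of 20 windows of evening clock genes (40%), beside 6.74% and 2.33% of all nuclear windows. The windows of PRR5, PRR7 and LHY are shown because these genes carry the clock values above. Capitals mark AAAATATCT and AAAAATCT on the reverse strand in PRR5, and CACGTG in PRR7 and LHY.
PRR5 (chr5:8358547-8358796, minus strand): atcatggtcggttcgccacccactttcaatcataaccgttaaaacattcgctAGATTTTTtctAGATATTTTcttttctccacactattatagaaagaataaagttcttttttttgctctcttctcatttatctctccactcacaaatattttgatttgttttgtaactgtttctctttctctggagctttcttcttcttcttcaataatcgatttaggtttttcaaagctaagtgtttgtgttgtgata
PRR7 (chr5:642031-642280, minus strand): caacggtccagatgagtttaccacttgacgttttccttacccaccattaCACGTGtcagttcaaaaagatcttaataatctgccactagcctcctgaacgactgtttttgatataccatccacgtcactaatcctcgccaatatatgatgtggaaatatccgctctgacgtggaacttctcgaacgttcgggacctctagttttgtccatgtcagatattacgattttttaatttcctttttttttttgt
LHY (chr1:37872-38121, minus strand): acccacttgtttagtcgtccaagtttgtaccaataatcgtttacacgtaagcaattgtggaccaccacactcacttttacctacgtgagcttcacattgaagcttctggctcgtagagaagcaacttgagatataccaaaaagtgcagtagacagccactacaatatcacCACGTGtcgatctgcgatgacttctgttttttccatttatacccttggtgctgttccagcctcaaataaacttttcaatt

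Light signalling and flowering genes did not stand out from all loci, of which 9.46% were higher and 9.93% lower. Of 29 photoreceptor and light signalling genes, 1 was higher and 3 were lower (median -0.10). Of 23 photoperiod and flowering genes 1 was higher and 3 lower (median -0.10). For light signalling, 2 were higher without long day at 8 h or continuous light at 32 h, and 1 was lower without long day at 38 h or continuous light at 14 h. BIC2, an inhibitor that blue light induces against cryptochrome activity, had 0.220 to 0.594 FPKM in long days, against 0.868 to 3.05 FPKM in continuous light, and was lower in the morning as well. FLC, the repressor of flowering, had 7.10 to 13.4 FPKM in long days (median 11.2), against 4.67 to 9.57 FPKM (median 5.84), a difference of 0.56 ± 0.13. SOC1, a promoter of flowering that FLC represses, differed by -0.75 ± 0.15 on annotated rows, but 42.8% of its long-day FPKM was on assembled transcripts and the difference vanished when these were added (adjusted p = 0.989). Among 13 B-box factors, 4 were lower and 1 higher. That rise was lost without long day at 8, 11, 32 or 35 h or continuous light at 14 or 32 h, and 2 were higher without continuous light at 8 h. The microproteins BBX30 and BBX31 had 0.174 to 2.84 and 0.199 to 1.02 FPKM in long days, against 1.44 to 4.57 and 1.26 to 3.45 FPKM in continuous light. BBX30 lost its call without the hour term (adjusted p = 0.0523). The differences of BBX30 and BBX31, -1.05 ± 0.21 and -1.04 ± 0.08, stood beside morning differences of 0.29 and 0.01, although the change between afternoon and morning was not called (adjusted p = 0.26 and 0.179).

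Of 28 gibberellin and cytokinin genes, 7 were higher in long days and 0 lower (median 0.16), beside 9.46% and 9.93% of all loci. Without continuous light at 11 h 1 was lower. ARR7, a type A response regulator that cytokinin induces, had 19.3 to 35.6 FPKM in long days (median 27.7), against 9.47 to 17.1 FPKM in continuous light (median 13.8), with the groups apart and a difference of 0.93 ± 0.14 (limma adjusted p = 0.00139). ARR4, of the same family, differed by 0.38 ± 0.09, and the gibberellin oxidase GA20OX2 by 0.53 ± 0.12. Of 32 shade and elongation genes, 5 were higher and 4 lower, with 1 or 2 lower when any one of 9 libraries was left out. XTH22, a cell wall enzyme induced by touch and shade, had 15.8 to 41.7 FPKM in long days, against 5.85 to 10.9 FPKM, in a locus merged in long days, and BR6OX2, the last oxidase of brassinosteroid synthesis, differed by 0.63 ± 0.13. SAUR23, a small auxin-induced growth gene, was lower, by -0.65 ± 0.13 (adjusted p = 0.0589 without the hour term). SAUR20 and SAUR22, whose sequences are close to it so that reads may be shared, differed by -0.77 and -0.64.

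Of 32 jasmonate, salicylate and defence genes, 2 were higher in long days, 4 lower and 26 not called (median 0.06). Over all loci 9.46% were higher and 9.93% lower in the afternoon, so the list as a whole did not stand out. Without long day at 32 h 4 were higher, and without any one of 6 other libraries 1 was. LOX2, the plastid lipoxygenase at the start of jasmonate synthesis, had 19.7 to 86.6 FPKM in long days (median 48.1), against 128 to 228 FPKM in continuous light (median 177), a difference of -2.08 ± 0.26 (adjusted p = 0.000519). AOS, allene oxide synthase, the next enzyme, had 22.3 to 42.8 FPKM, against 46.0 to 71.6 FPKM. Neither gene overlapped between the groups. VSP2, a storage protein that jasmonate induces, had 11.1 to 60.2 FPKM, against 31.1 to 129 FPKM, a difference of -1.61 ± 0.42 that was lost without any one of 6 libraries (adjusted p up to 0.057). None of 25 abscisic acid and drought genes was called in either direction in the limma fit (median -0.04, with 8 at an unadjusted p under 0.05), while 9 were higher and 2 lower in the morning, beside 8.72% and 8.34% of all loci. In the afternoon 4 were higher without long day at 35 h and 1 without long day at 38 h, and 1 was lower without long day at 8 h or continuous light at 32 h. Whether those genes differ between afternoon and morning was tested, and none was called.

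Of 28 flavonoid genes, 8 were lower and 1 higher (median -0.33), beside 9.93% and 9.46% of all loci. The count of lower genes moved with single libraries. It was 3 without long day at 8 h or continuous light at 11 h, 13 without long day at 14 h, and 4 or 5 without long day at 11, 35 or 38 h or continuous light at 8 or 38 h. Chalcone isomerase (AT3G55120), an early enzyme, had 6.93 to 10.2 FPKM in long days (median 8.45), against 10.2 to 16.8 FPKM in continuous light (median 15), a difference of -0.73 ± 0.13. CHS, chalcone synthase, and FLS1, flavonol synthase, differed by -1.08 ± 0.29 and -1.03 ± 0.26. The CHS call was lost without any one of 8 libraries (adjusted p up to 0.064), and FLS1 was lost without the long-day library at 8 h or the continuous-light library at 11 h. MYBL2, a repressor of anthocyanin genes, was the single rise, at 18.3 to 58.6 FPKM in long days, against 13.0 to 44.1 FPKM. Its difference was 0.64 ± 0.14 in the afternoon (limma adjusted p = 0.24 without the hour term) and -1.11 in the morning, and the change between afternoon and morning was not called. For the whole flavonoid list the morning median was -0.91, with 18 lower and 0 higher, beside 8.34% and 8.72% of all loci. Of 23 glucosinolate genes, 7 were lower and 1 higher (median -0.31), and 4 were lower without long day at 8, 11 or 38 h or continuous light at 8 or 14 h. The count of higher ones was 2 without long day at 8 h or continuous light at 32 h. Among the lower was CYP83A1, of the aliphatic core pathway, at 40.1 to 82.0 FPKM in long days and 60 to 142 FPKM in continuous light. General phenylpropanoid genes had 3 of 18 lower and 0 higher, with 1 lower when any one of 5 libraries was left out.

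Of 31 genes for high light, reactive oxygen and heat, 3 were higher in long days, 7 lower and 21 not called. Over all loci 9.46% were higher and 9.93% lower. ELIP1, a chlorophyll-binding protein that strong light induces, had 1.65 to 3.42 FPKM in long days (median 2.98), against 3.56 to 12.2 FPKM in continuous light (median 6.09). It differed by -1.10 ± 0.23, beside 0.01 in the morning, and the change between afternoon and morning was not called. CSD2, the plastid copper and zinc superoxide dismutase, was higher, with 41.3 to 174 FPKM, against 22.0 to 74.5 FPKM, and CAT2 (AT4G35090), the leaf catalase, had 206 to 412 FPKM, against 153 to 237 FPKM. The CAT2 difference of 0.59 ± 0.15 was lost without any one of 4 libraries (adjusted p up to 0.0589). HSFA7A, a heat shock factor, had 6.30 to 8.08 FPKM, against 2.91 to 4.95 FPKM. Among 15 cold regulated genes, 3 were lower, each in a merged locus, and 1 was higher, the regulator ICE1, by 0.31 ± 0.05.

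The series is titled for splicing and polyadenylation under the clock. Of 33 SR proteins and splicing regulators, 7 were higher in long days and 2 lower (median 0.12), beside 9.46% and 9.93% of all loci. RS41, a plant-specific SR protein, had 83.1 to 99.5 FPKM in long days (median 86.1), against 56.8 to 70.8 FPKM in continuous light (median 65.3), and SC35 had 39.7 to 50.8 FPKM, against 28.6 to 38.7 FPKM. Both had separate ranges, with differences of 0.36 ± 0.06 and 0.32 ± 0.07. Of 23 cleavage and polyadenylation genes, 4 were higher and 5 lower. With assembled transcripts added none of the list remained lower and 5 were higher. CPSF100, of the cleavage complex, turned from -1.59 ± 0.28 to 0.18 (adjusted p = 0.0909), and FIPS5, of the poly(A) polymerase complex, went to 0.26 (adjusted p = 0.0467) from 1.15 ± 0.12, with 46.5% of its FPKM in continuous light on assembled transcripts. Of 16 reference genes, 2 were higher and 2 lower (1 lower without any one of 5 libraries), and the actin ACT2 had 322 to 369 FPKM in long days, against 191 to 238 FPKM, a difference of 0.66 ± 0.07.

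Isoform usage was compared in 5330 annotated isoforms of 2160 loci without assembled or merged transcripts, as the log2 ratio of an isoform to the rest of its locus. The limma fit called 0 isoforms (0.0%), the smallest adjusted p being 0.172. At an unadjusted p under 0.05 there were 528 (9.91%), and 84 isoforms had all 6 libraries of one regime above the other 6. Loci with assembled transcripts gave 744 calls when they were kept in, which cannot be told apart from the separate assembly of the tables.

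The largest falls among well-measured loci were led by VEP1, a steroid reductase of vein patterning, at 12.5 to 65.5 FPKM in long days (median 17.9), against 178 to 262 FPKM in continuous light (median 215). The difference was -3.14 ± 0.41. UGD3, a UDP-glucose dehydrogenase for cell wall precursors, had 3.91 to 13.9 FPKM, against 33.7 to 45.6 FPKM, and OEP6, an outer envelope protein of the chloroplast, had 149 to 347 FPKM, against 740 to 1120 FPKM. KMD4 (AT3G59940), a kelch F-box protein, had 6.30 to 21.4 FPKM, against 65.9 to 89.1 FPKM. The remaining ones included emb2386, a ribosomal protein with near copies, ABCF4, ENODL2 and AT1G06283, with differences of -2.81 to -2.08. VEP1, KMD4 and AT1G06283 each overlap another annotated locus, whose reads cannot be told apart without strand. UGD3, OEP6, emb2386, ABCF4 and ENODL2 also overlap another annotated or assembled gene. Of the 12 largest falls, only AT3G03600, NF-YB3 and LOX2 overlap none. The windows of VEP1 and emb2386 held none of the 4 motifs.

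Loci that overlap no other annotated or assembled gene on either strand were examined on their own, a restriction chosen after values had been seen. Of 7372 such nuclear loci, 659 were higher (8.94%) and 664 lower (9.01%). Their largest rises included AT3G06680, a ribosomal protein gene with near copies, at 14.1 to 22.9 FPKM in long days against 1.07 to 1.53 FPKM in continuous light, and PRX52, a class III peroxidase, at 4.40 to 10.6 FPKM against 0.781 to 3.24 FPKM. CGA1, a GATA factor that promotes chloroplast development and responds to cytokinin, had 3.34 to 8.11 FPKM, against 1.25 to 2.65 FPKM, and OXS3, an oxidative stress protein, had 8.38 to 16.3 FPKM, against 2.19 to 6.31 FPKM. Falls included LOX2, NF-YB3, a CCAAT-binding factor that acts in photoperiodic flowering, at 0.853 to 17.7 FPKM against 23 to 31.7 FPKM, and CLH1, a chlorophyllase, at 4.15 to 11.5 FPKM against 13.6 to 25.9 FPKM. NF-YB3 lost its call without the long-day library at 38 h, or the continuous-light library at 14 h or 38 h (adjusted p up to 0.0526).

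Root, phloem and xylem, and guard cell markers were detected in both groups. Root markers summed to 158 to 218 FPKM in long days and 133 to 193 FPKM in continuous light. Of 17, 4 were higher and 2 lower, beside 9.46% and 9.93% of all loci. Their differences ran from -2.3 to 0.67 (median -0.07), with 10 below 0. Among the higher were SHR and SCR, which pattern the root's ground tissue, with differences of 0.47 ± 0.11 and 0.26 ± 0.07. The SCR call was lost without long day at 38 h or continuous light at 14 h and with the sampling hours as a replicate block (adjusted p up to 0.0526). Phloem and xylem markers summed to 146 to 209 FPKM, against 177 to 242 FPKM (3 of 10 lower), and guard cell markers to 8.55 to 17.5 FPKM, against 13.9 to 24.8 FPKM (1 of 7 lower). No flower marker exceeded 1 FPKM on average. Of the marker genes tested none was at 0 in all 6 afternoon libraries of a regime. Loci at 0 throughout a table had been left out beforehand, among them 1 of 13 seed markers, LEC1. The part of tissue proportions in the results above was not tested.

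Whether the regime difference changed from the first to the second afternoon was tested as an interaction, and 318 loci were called (1.24%). bHLH38, a factor of the iron deficiency response, had 0.605 to 1.82 FPKM in long days and 10.2 to 14.1 FPKM in continuous light in cycle 1, and 0.0818 to 1.31 FPKM and 0.921 to 1.06 FPKM in cycle 2. The change was 2.44 ± 0.33 (limma adjusted p = 0.0144). AT1G47395, a short gene known to respond to iron shortage, went the same way, at 2.40 to 5.07 FPKM in long days against 13.7 to 25.0 FPKM in continuous light in cycle 1, and 1.54 to 3.39 FPKM against 2.01 to 2.52 FPKM in cycle 2. The high values of both genes were those of continuous light in cycle 1. TGG2, a myrosinase, and ESM1, which steers glucosinolate breakdown, were low in long days in cycle 1 (68.7 to 82.7 and 28.8 to 37.0 FPKM), against 264 to 351 and 154 to 201 FPKM in continuous light. In cycle 2 they stood at 93.9 to 239 and 50 to 96.3 FPKM, against 150 to 220 and 86.9 to 157 FPKM.

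Other genes changed in the opposite direction between cycles. MLS, the malate synthase of the glyoxylate cycle, had 138 to 169 FPKM in long days and 35.3 to 60.6 FPKM in continuous light in cycle 1, and 22.7 to 49.0 FPKM and 42.7 to 65.8 FPKM in cycle 2. AT2G47780, a lipid droplet family gene, had 32.9 to 49.7 FPKM against 11.8 to 16.2 FPKM in cycle 1, and 7.11 to 10 FPKM against 15.8 to 40.7 FPKM in cycle 2. The 12 seed and embryo markers had a median difference of 0.41 in cycle 1 and -1.39 in cycle 2, with sums of 341 to 2540 FPKM in long days and 594 to 2320 FPKM in continuous light, 0 of 12 called by limma over both cycles (2 at an unadjusted p under 0.05). For the change between cycles 1 of the 12 was called, beside 1.24% of all loci, and their part in the cycle results was not tested. It was OLEO1, an oil body protein of seeds, at 115 to 201 FPKM in long days against 67.3 to 119 FPKM in continuous light in cycle 1, and 26.2 to 57.6 FPKM against 73.4 to 150 FPKM in cycle 2. Its change of -2.13 (adjusted p = 0.0398) was lost without any one of 10 libraries (adjusted p up to 0.105) and without centring (0.0501). PMD2, a factor of peroxisome and mitochondrion division, had 58.5 to 62.8 FPKM in long days in cycle 1 and 2.97 to 9.51 FPKM in cycle 2, while continuous light stayed at 29.6 to 50.6 FPKM. AT2G43780 was at 18.3 to 27.6 FPKM in all 6 long-day libraries, and at 1.76 to 2.88 FPKM in cycle 1 and 21.6 to 24.1 FPKM in cycle 2 of continuous light. Both genes also switched among the morning libraries, PMD2 between 0 and 40.5 FPKM in long days and between 2.08 and 45.0 FPKM in continuous light, and AT2G43780 between 1.68 and 20.4 FPKM and between 1.74 and 21.4 FPKM. Of the genes that changed between cycles, TGG2, MLS, AT1G47395, ESM1 and bHLH38 lost their calls without any one of 10, 9, 7, 2 and 2 libraries (adjusted p up to 0.0887). The bHLH38 call, which rests on low levels, was also lost with a pseudocount of 0.1 (2.53, adjusted p = 0.204).

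**Figure D5:**
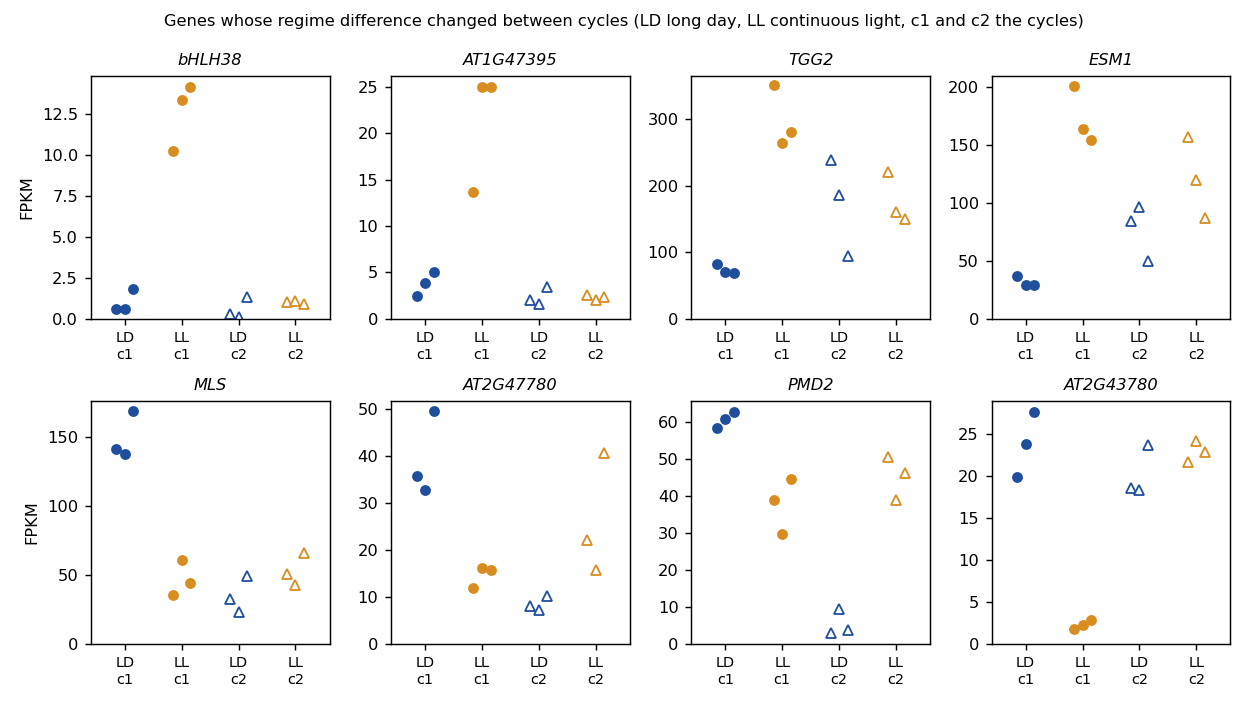
FPKM of 8 genes whose regime difference changed between cycles, with 3 libraries (8, 11 and 14 h after dawn) for each regime and cycle, long day left of continuous light within each cycle. In the top row the outlying groups are long day or continuous light of cycle 1, and in MLS the long-day libraries of cycle 1 stand alone at 138 to 169 FPKM.

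The difference depended on the hour of day at 10 loci (0.0389%), with 1492 at an unadjusted p under 0.05, and 3 of the 10 lie in merged genes. The leading ones switched between expressed and near 0 at the same hour of both cycles. GOS11, a Golgi SNARE, had 32.8 and 30.8 FPKM at 8 and 32 h in long days, against 0.149 and 0.122 FPKM in continuous light, and 25.4 to 35.5 FPKM against 28 to 32 FPKM at the other hours. Continuous light was also at 0.0726 to 0.309 FPKM at 2, 26 and 29 h, and at 30.1 FPKM at 5 h. CRF11, a cytokinin response factor with no overlapping locus, had 0.197 and 0.319 FPKM at 14 and 38 h in long days, against 13.4 and 10.8 FPKM in continuous light, and lay at 7.77 to 17.2 FPKM in the 8 libraries of the other hours. AT3G52470 had 0.0392 to 0.633 FPKM at 11, 14, 35 and 38 h in long days, against 52.8 to 67.6 FPKM in continuous light. The calls of GOS11, AT3G52470 and AT1G48090 were lost when assembled transcripts were added (adjusted p = 0.523, 0.912 and 0.53).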

How the data were processed

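Values were transcript FPKM from RNA-seq, deposited by the authors as one table per light regime. TAIR10 is the build named in the submitters' processing notes, and the tools behind the tables are named neither there nor in the file headers. Rows with annotated names were summed per locus, and 6602 of 32310 shared loci that were at 0 in every library of a table were left out. Limma 3.58.1 in R 4.3.3 was run on centred log2(FPKM + 1) with a mean-variance trend and hour of day as covariate, and checked on simulated data. Regime by cycle, by hour and by afternoon or morning (20 lit libraries) were fitted as interactions, isoforms as log2 ratios with 0.5 FPKM added.

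Of 693 listed symbols 4 were unmatched. Genes are named as list members or as the 12 largest each way among called loci of at least 5 FPKM with separate groups, no merged gene and under 20% assembled FPKM. For cycle they are the 6 largest each way, and for hour the 6 smallest adjusted p. Loci and lists were chosen with earlier results of these data known. Fits without organelle loci and on isolated loci were added after seeing the data, and the promoters shown for photosynthesis and starvation were picked then too. Promoter windows came from RefSeq TAIR10.1.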

Additional observations from a re-analysis of the deposited data

Results flagged for a closer look

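Of 300 groups of 6 libraries examined, 15 (5.0%) held a library set apart beyond Dixon's 95% critical value for 6 samples, and chance puts about 1 in 20 groups past it. In long days GRP8 was at 103 FPKM and PSBR at 3290 FPKM at 32 h, with the other libraries at 147 to 180 and 1270 to 1810 FPKM. ABCF4 stood at 21.7 FPKM at the same hour, against 6.33 to 10 FPKM in the other long-day libraries. At 35 h in long days emb2386 was at 67.2, UGD3 at 13.9, UBQ11 at 0.391 and APR2 at 45.9 FPKM, outside the 7.33 to 16.1, 3.91 to 6.01, 4.79 to 7.24 and 57 to 60.5 FPKM of the others. STP1 was at 38.8 FPKM at 8 h in long days, below 59 to 74.1 FPKM. In continuous light CSD2 was at 74.5 FPKM at 38 h, SEC61 BETA at 102 FPKM at 35 h, AT1G06283 at 7.4 FPKM at 11 h and CPSF100 at 9.84 FPKM at 8 h. RVE3 was at 7.02 FPKM at 11 h, above 3.84 to 4.82 FPKM, and RVE2 at 2.25 FPKM at 38 h and listed at 0 in the other 5 continuous-light libraries. ATCG00010 was at 0.0908 FPKM at 14 h in continuous light and listed at 0 in the other 5 libraries.

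The regime difference changed from cycle 1 to cycle 2 (limma interaction, log2 scale) by 2.71 in ATCG00010, 2.44 in bHLH38, 2.28 in AT1G47395, 2.19 in AT1G23130, 1.97 in TGG2 and 1.83 in ESM1. It changed by -3.58 in PMD2, -3.0 in AT2G43780, -2.86 in EPR1, -2.72 in AT2G47780, -2.54 in ATCG00820 -2.24 in MLS and -2.13 in OLEO1. ELF4 differed between afternoon and morning by 2.88. By hour of day the smallest adjusted p were 0.000415 for GOS11 and AT1G22730, 0.00114 for AT3G52470 and AT4G02720, and 0.00592 for AT1G48090 and CRF11.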

How the results depend on the processing

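Counts of calls moved with the number of libraries and loci. The 4985 afternoon calls became 1330 among isolated loci alone, 1455 in cycle 1 alone and 853 in cycle 2 alone, and were 3805 to 5163 without single libraries. Of list members 196 were called, against 59, 87 and 32 under the same restrictions and 150 to 189 without single libraries. Each restriction tests fewer loci or libraries. The 318 cycle calls became 84 among isolated loci and 180 to 313 without single libraries (180 without long day at 11 h). The 10 hour calls were 24 without centring, 18 with quantile normalization, 22 with a pseudocount of 0.1, 2 among isolated loci, and 19 to 84 without single libraries, each of which raised the count. The afternoon and morning difference, 1 call, gave 5 with quantile normalization, 7 with a filter of 1 FPKM, 5 with a pseudocount of 0.1, 7 with assembled transcripts, 3 among isolated loci and 1 to 18 without single libraries (18 without continuous light at 5 h). Isoforms went to 744 calls with assembled transcripts kept in, and to 0 to 5 without single libraries. The cause of these moves was not tested where loci and libraries stayed the same.

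Signs turned for GI in cycle 1 alone (-0.08), for CPSF100 and RVE2 with assembled transcripts (0.18 and -0.68), and for ELF4 in the afternoon without centring (0.04), with quantile normalization (0.1), with a pseudocount of 5 (0.02), in cycle 1 alone (0.16) and without single libraries (-0.12 to 0.13). Of the values for single genes and lists under the other settings, 2463 kept direction and call, 197 lost the call, 3 gained it and 171 counts moved by more than 1.5 times.

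The sampling hours are shared by both regimes but did not pair the libraries. Deviations of same-hour libraries correlated at -0.03 to 0.07, and 2 of 6 matched best with their own hour. With the hours as a replicate block there were 4121 calls, of which 168 were list members, and 0 isoforms. Precision is limited by 1 library per time point and by read depths that FPKM does not show.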
